A study of Mus musculus with 6 samples.

Results

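The basement membrane genes described here are 10 genes chosen by symbol: the collagen IV chains Col4a1 and Col4a2, the laminin chains Lama2, Lama4, Lamb1, Lamb2 and Lamc1, the nidogens Nid1 and Nid2, and the perlecan gene Hspg2. All 10 were found among the 21989 gene symbols of the deposited expression table. The values come from sequencing of polyadenylated RNA from the left ventricle of male C57BL/6 mice. The 3 ISO libraries are from mice injected under the skin with ISO at 10 mg/kg/d for 3 weeks, which the labels call the heart failure group, and the 3 saline libraries are from mice that received an equal volume of normal saline, which the labels call the sham group. ISO is the usual abbreviation of isoproterenol, an agonist of beta-adrenergic receptors. No genotype differs between the groups, and the sources used here do not give the age of the mice. The labels speak of biological repeats and do not name single animals, so whether each library is 1 animal is unknown, and the errors and p-values cover only the variation among these 6 libraries, which may be technical. The comparison asks whether the expression of the basement membrane genes differs between ISO and saline ventricles.

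A basement membrane is the thin sheet of matrix that wraps each heart muscle cell and underlies the endothelium of each vessel. Laminins, which are trimers of an alpha, a beta and a gamma chain, bind receptors on the cell and assemble into a network, collagen IV forms a second network that gives the sheet its strength, and nidogens and perlecan link the networks. In muscle, laminin holds the cell to its matrix through dystroglycan and integrins, and loss of the laminin alpha 2 chain causes a congenital muscular dystrophy in humans and mice.

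Col4a1 and Col4a2 lie head to head on chromosome 8 and are transcribed away from each other, so their start regions are shown as the DNA that both genes have in common. RefSeq windows of 300 bases (GRCm38.p6), of which 250 precede the annotated transcript start, cover chr8:11312777-11313076 on the minus strand for Col4a1 and chr8:11312555-11312854 on the plus strand for Col4a2. The capitals mark the 78 bases that both windows hold, read on opposite strands:
Col4a1: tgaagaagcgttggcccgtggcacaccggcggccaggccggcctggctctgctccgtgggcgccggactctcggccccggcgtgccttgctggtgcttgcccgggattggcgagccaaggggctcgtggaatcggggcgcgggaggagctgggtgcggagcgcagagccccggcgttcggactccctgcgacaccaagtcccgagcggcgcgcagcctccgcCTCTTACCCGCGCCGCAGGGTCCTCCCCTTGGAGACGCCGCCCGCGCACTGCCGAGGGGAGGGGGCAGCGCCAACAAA
Col4a2: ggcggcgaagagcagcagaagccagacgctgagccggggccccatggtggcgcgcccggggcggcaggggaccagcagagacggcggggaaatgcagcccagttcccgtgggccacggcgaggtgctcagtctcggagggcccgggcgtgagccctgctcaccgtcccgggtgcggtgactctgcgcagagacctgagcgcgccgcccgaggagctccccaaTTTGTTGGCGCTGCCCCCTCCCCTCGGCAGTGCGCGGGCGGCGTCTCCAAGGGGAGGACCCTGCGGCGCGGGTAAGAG
The transcript starts of these windows are at 11312826 for Col4a1 and 11312805 for Col4a2, so the first exons of these transcripts overlap by 22 bases on opposite strands. The full RefSeq span of Col4a1 reaches further, to 11312889. Of the 10 genes, 7 had a window in the RefSeq table (Col4a1, Col4a2, Lama2, Lamb1, Lamb2, Nid1 and Hspg2). The GC content was 74.0% in the Col4a1 window, 73.7% in the Col4a2 window and 70.3% in the Hspg2 window, against a median of 52.7% over all 32851 windows. It was 44.0% in the Lamb2 window. The letters GGGCGG, the core of the GC box that Sp1 binds, were searched on both strands and found in 6 of the 7 windows, including 1 copy inside the bases shared by Col4a1 and Col4a2, against 35.7% of all windows. CCAAT on either strand was in 4 of the 7 windows (37.4% of all windows), and TATAAA on either strand was in 0 of the 7 (13.6% of all windows). These matches describe the letters only.

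Library totals, recovered from the steps of the values, were 7378782, 5154283 and 5614336 reads for ISO 1 to 3 and 9862363, 6307039 and 2776152 reads for saline 1 to 3. The 10 genes rested on 51 reads (Nid2 in saline 3) to 5540 reads (Lamb2 in saline 1) per library. Saline 3 stood apart: across genes with enough reads, Pearson r was 0.788 to 0.83 between it and any other library and 0.918 to 0.973 between any pair of the rest. The ventricular light chain Myl2 was present in all 6 libraries, but the atrial light chain Myl7 was above it in 5 of 6. Myl2 divided by Myl7 gave 0.172, 0.171 and 0.0168 in ISO 1 to 3, and 0.154, 0.0328 and 1.22 in saline 1 to 3, which goes against a purely ventricular sample in most libraries. The labels name no batch.

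None of the 10 basement membrane genes differed between ISO and saline ventricles past the threshold. Values were tested as log2(FPKM + 1), where FPKM divides the fragments of a gene by its length and by the library total, with limma over all 12269 genes with a mean of at least 1 FPKM, at a Benjamini-Hochberg adjusted p of 0.05. The adjusted p of the 10 genes was 0.6985 (Nid1) to 0.9915 (Lamb2), 0 of the 10 were called, and 0.0% of all genes tested were called. At an unadjusted p under 0.05 there were 0 of the 10 and 774 of the 12269, and limma-voom on the recovered reads called 0 genes in all. The median log2 fold change of the 10, ISO over saline, was 0.18, beside 0.20 over all genes tested, and the fold change was above 0 for 8 of the 10 and for 68.1% of all genes. The ISO and saline values did not overlap for 1 of the 10 genes, Nid1, against 16.5% of all genes tested (12.8% with ISO higher and 3.72% with ISO lower). The summed level of the 10 was 370, 362 and 372 FPKM in ISO 1 to 3, and 381, 375 and 265 FPKM in saline 1 to 3, so saline 3 lay below the other 5 libraries. Without saline 3 the median log2 fold change was -0.038 for the 10 genes and 0.063 for all genes tested. Other scalings moved the median of all genes to near 0 and turned the sign of small fold changes, those of Col4a1, Lama2, Lamb2, Lamc1 and Hspg2 included, so no direction is given for these genes. In such bulk samples, fewer cells of a type and less RNA per cell cannot be told apart.

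**Figure D1:**
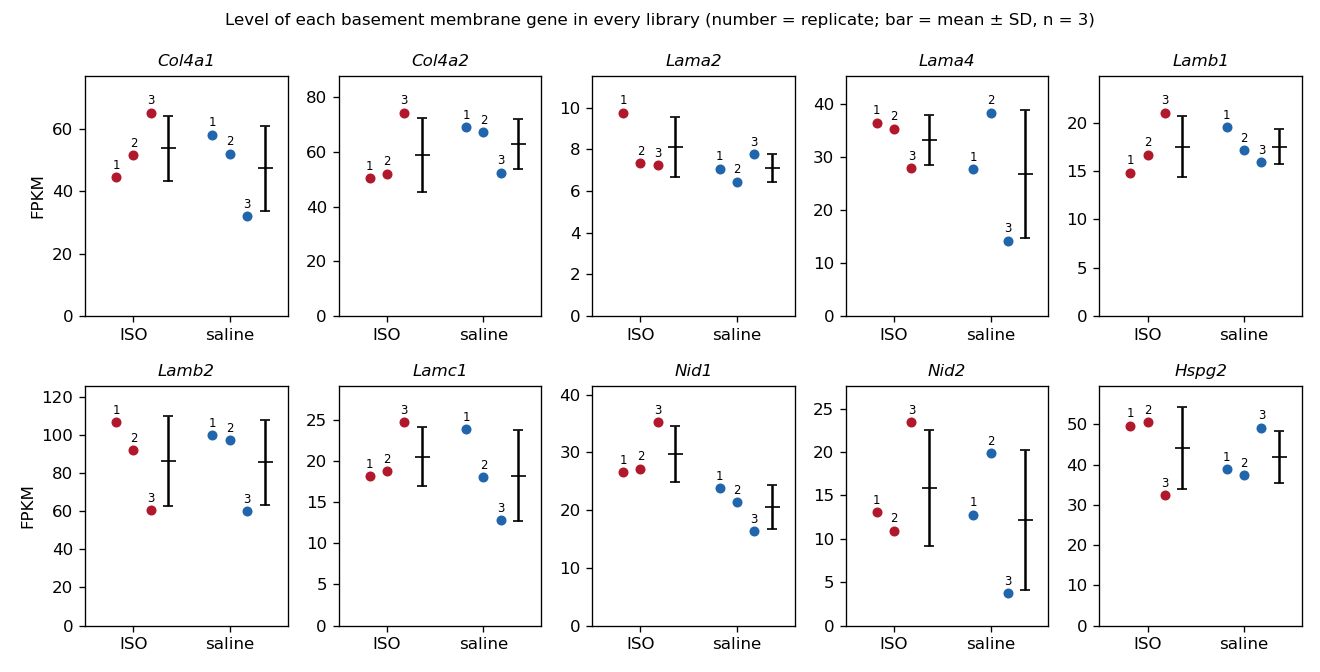
Level of each gene (FPKM, axis from 0) in the 3 ISO libraries (red, left) and the 3 saline libraries (blue, right), numbered by replicate, with the mean and SD of each group in black. The groups overlap in every panel except Nid1, where ISO lies at 26.6 to 35.2 FPKM and saline at 16.4 to 23.8 FPKM.

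Col4a1 (chromosome 8, 11198423 to 11312889) and Col4a2 (chromosome 8, 11312805 to 11449287) encode the chains of the most widespread collagen IV molecule. Col4a1 was at 44.5, 51.5 and 65.2 FPKM in ISO 1 to 3, against 58.1, 52.0 and 32.1 FPKM in saline 1 to 3. ISO 3 was the highest library and saline 3 the lowest, and the groups overlapped. The log2 fold change was 0.20 (SE 0.29, 95% interval -0.49 to 0.90, adjusted p = 0.786 with limma), and it was -0.049 without saline 3. Its neighbour Col4a2 was at 50.3, 52.0 and 74.4 FPKM in ISO 1 to 3, against 69.0, 67.2 and 52.4 FPKM in saline 1 to 3. ISO 1 and ISO 2 lay below every saline library and ISO 3 above every one. The log2 fold change was -0.11 (SE 0.25, interval -0.69 to 0.48, adjusted p = 0.871 with limma), and it ran from -0.41 to -0.0055 over the alternative settings.

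Within each library, the ratio of Col4a1 to Col4a2 removes the library total. It was 0.884, 0.991 and 0.876 in ISO 1 to 3, against 0.841, 0.774 and 0.611 in saline 1 to 3, so Col4a2 was the higher of the pair in all 6 libraries and every ISO ratio lay above every saline ratio. The difference of the log2 ratios of FPKM + 1 was 0.31 (ISO -0.12 ± 0.097, saline -0.43 ± 0.23, SD, n = 3 each). An exact two-sided permutation test gave p = 0.1, the smallest that 3 against 3 libraries allow, and 0.3 after adjustment over the 6 ratios tested. Both genes were chosen with earlier results of these data known, so the difference is a description and this p is no support for it. The difference was 0.18 without saline 3, the library with the lowest ratio.

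The laminin alpha chains decide which cell receptors a laminin trimer binds. Lama2 (chromosome 10, 26981285 to 27617191), the alpha chain of the laminin around muscle cells, was at 9.76, 7.33 and 7.23 FPKM in ISO 1 to 3, against 7.08, 6.45 and 7.77 FPKM in saline 1 to 3. ISO 1 stood above the other 5 libraries, which lay within 6.45 to 7.77 FPKM. Its log2 fold change was 0.16 (SE 0.24, interval -0.39 to 0.71, adjusted p = 0.787 with limma), and it was 0.22 without saline 3. Its exons share 631 bases with Gm48084 on the other strand, and the sources used here give no strand setting for the counting. Lama4 (chromosome 10, 38965515 to 39110188), an alpha chain of vessel and endothelial laminin, was at 36.5, 35.3 and 27.9 FPKM in ISO 1 to 3, against 27.7, 38.4 and 14.2 FPKM in saline 1 to 3. The highest and the lowest library both belonged to the saline group. It had a log2 fold change of 0.40 (SE 0.37, interval -0.47 to 1.26, adjusted p = 0.703 with limma) and 0.015 without saline 3. The ratio of Lama2 to Lama4 was 0.268, 0.207 and 0.260 in ISO 1 to 3 and 0.255, 0.168 and 0.546 in saline 1 to 3, with overlap and no call (difference of log2 ratios -0.24, exact permutation p = 0.9, and 0.20 without saline 3).

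The beta chains Lamb1 and Lamb2 replace each other in laminin trimers. Lamb2 (chromosome 9, 108479847 to 108490530), whose chain is enriched at the neuromuscular junction and in the kidney filter, had the highest mean of the 10 genes. It was at 107, 92.0 and 60.5 FPKM in ISO 1 to 3, against 99.8, 97.1 and 60.0 FPKM in saline 1 to 3. ISO 3 and saline 3 were the low libraries of their groups, and the means were 86.4 ± 23.6 FPKM in ISO and 85.6 ± 22.2 FPKM in saline (SD, n = 3 each). Lamb1 (chromosome 12, 31265146 to 31329644), the more widespread beta chain of the embryo and of vessels, was at 14.9, 16.7 and 21.1 FPKM in ISO 1 to 3, against 19.6, 17.2 and 15.9 FPKM in saline 1 to 3. The log2 fold change was 0.0092 for Lamb2 (SE 0.32, interval -0.73 to 0.75) and -0.0097 for Lamb1 (SE 0.23, interval -0.55 to 0.54), with adjusted p = 0.992 for Lamb2 and 0.988 for Lamb1 with limma. Without saline 3 it was -0.23 for Lamb2 and -0.074 for Lamb1. Lamb1 stood at a smaller part of Lamb2 in every library, with a ratio of 0.139, 0.182 and 0.349 in ISO 1 to 3 and 0.196, 0.177 and 0.265 in saline 1 to 3. The ratio was highest in the third library of both groups, and the groups overlapped (difference of log2 ratios -0.019, exact permutation p = 1.0).

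Lamc1 (chromosome 1, 153218922 to 153332786) encodes the gamma chain found in most laminins. It was at 18.1, 18.7 and 24.7 FPKM in ISO 1 to 3, against 23.8, 18.0 and 12.8 FPKM in saline 1 to 3. The groups overlapped, with saline 3 lowest, and the log2 fold change was 0.19 (SE 0.29, interval -0.48 to 0.87, adjusted p = 0.792 with limma) and -0.026 without saline 3. Summed by role, the level of the alpha chains was 41.3 ± 5.69 FPKM in ISO and 33.9 ± 11.4 FPKM in saline, and that of the beta chains 104 ± 20.4 FPKM in ISO and 103 ± 23.7 FPKM in saline, beside 20.5 ± 3.63 FPKM in ISO and 18.2 ± 5.53 FPKM in saline for the gamma chain (SD, n = 3 each). These are levels per kilobase of RNA and not of protein.

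Nidogens bridge laminin and collagen IV. Nid1 (chromosome 13, 13437602 to 13512275) was the only gene of the 10 whose groups did not overlap. It was at 26.6, 27.1 and 35.2 FPKM in ISO 1 to 3, against 23.8, 21.4 and 16.4 FPKM in saline 1 to 3. The gap between the lowest ISO and the highest saline library (26.6 and 23.8 FPKM) was smaller than the SD within either group (4.82 FPKM in ISO and 3.77 FPKM in saline). The log2 fold change was 0.51 (SE 0.24, interval -0.059 to 1.09, unadjusted p = 0.0716 and adjusted p = 0.6985 with limma). It stayed between 0.23 and 0.62 over the alternative settings. It was 0.37 without saline 3, and removal of the trend on gene length gave 0.23 and let the groups overlap. Nid1 shares 143 exon bases with Gm48682 on the other strand, and reads within these shared bases could not be told apart without strand.

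Nid2 (chromosome 14, 19751257 to 19811787) varied most of the 10, by 6.23 times between its lowest and highest library. It was at 13.1, 10.9 and 23.4 FPKM in ISO 1 to 3, against 12.8, 19.9 and 3.76 FPKM in saline 1 to 3. The counting interval in saline 3 was 2.80 to 4.95 FPKM (95%, exact Poisson, 51 reads), and the lowest interval of the other libraries was 9.67 to 12.3 FPKM, in ISO 2, a gap beyond counting error. The log2 fold change of 0.53 (SE 0.57, interval -0.80 to 1.86, adjusted p = 0.730 with limma) was -0.083 without saline 3. Nid2 shares 437 exon bases with Rtraf on the other strand, and reads within these shared bases could not be told apart without strand. Rtraf was at 75.1 to 100.4 FPKM in the ISO libraries and 61.0 to 70.1 FPKM in the saline libraries. The ratio of Nid1 to Nid2 was 2.03, 2.49 and 1.501 in ISO 1 to 3 and 1.86, 1.08 and 4.36 in saline 1 to 3, and Nid1 was the higher in all 6 libraries (difference of log2 ratios -0.013, exact permutation p = 1.0).

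Hspg2 (chromosome 4, 137468751 to 137570630) encodes perlecan, a large heparan sulfate proteoglycan. It was at 49.7, 50.5 and 32.4 FPKM in ISO 1 to 3, against 38.9, 37.3 and 49.2 FPKM in saline 1 to 3. Here the order of the libraries turned round: ISO 3 was the lowest of all and saline 3 stood near ISO 1 and ISO 2. Its fold change on the log2 scale was 0.061 (SE 0.26, interval -0.55 to 0.68, adjusted p = 0.930 with limma), and it was 0.27 without ISO 3, the highest of the values with 1 library left out. The ratio of Hspg2 to Lamc1 was 2.74, 2.70 and 1.31 in ISO 1 to 3 and 1.63, 2.08 and 3.86 in saline 1 to 3, so the third library was the extreme of each group, in opposite directions (difference of log2 ratios -0.13, exact permutation p = 0.9, and 0.21 without saline 3 or without ISO 3).

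**Figure D2:**
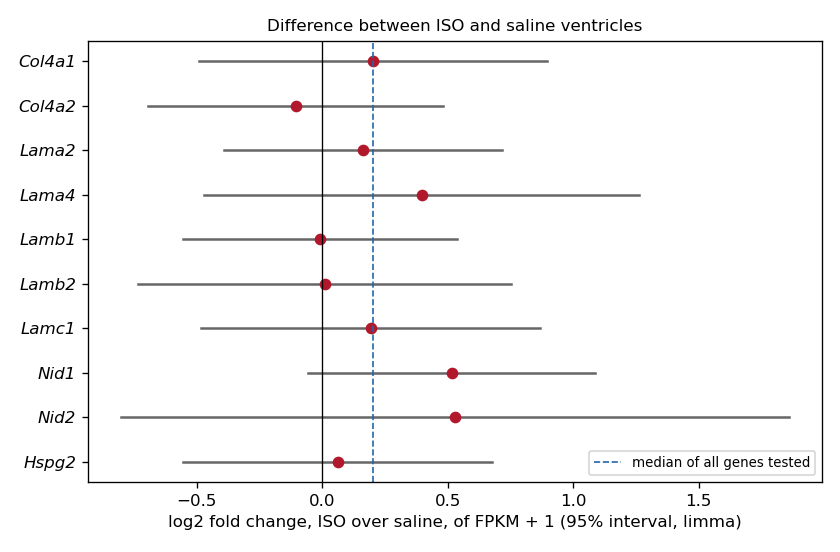
Log2 fold change of FPKM + 1, ISO over saline, for each gene (points) with the 95% interval from limma (lines), the solid vertical line at 0 and the dashed line at the median of all genes tested (0.20). Every interval holds 0, and Nid1 comes closest to leaving it out (-0.059 to 1.09).

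In order of mean level over the 6 libraries, the genes ran Lamb2 (86.0 ± 20.5 FPKM), Col4a2 (60.9 ± 10.5 FPKM), Col4a1 (50.5 ± 11.4 FPKM), Hspg2 (43.0 ± 7.77 FPKM), Lama4 (30.0 ± 8.93 FPKM), Nid1 (25.1 ± 6.32 FPKM), Lamc1 (19.3 ± 4.37 FPKM), Lamb1 (17.6 ± 2.33 FPKM), Nid2 (14.0 ± 6.93 FPKM) and Lama2 (7.60 ± 1.14 FPKM) (SD, n = 6). Among neighbours in this order, Col4a2 was above Col4a1 in 6 of 6 libraries. Every other gene was above the next one in 4 or 5 of 6 libraries, so those neighbours were not in a fixed order. Lamb2 lay above 94.2% of all genes tested by mean FPKM and Lama2 above 45.3%.

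Within each group, the third library often held the lowest or the highest value. Saline 3 was the lowest of the 6 libraries for 6 of the 10 genes (Col4a1, Lama4, Lamb2, Lamc1, Nid1 and Nid2), and it was so for 52.8% of all genes tested. ISO 3 was the highest ISO library for 6 genes (Col4a1, Col4a2, Lamb1, Lamc1, Nid1 and Nid2; 48.0% of all genes tested) and the lowest ISO library for the other 4 (Lama2, Lama4, Lamb2 and Hspg2; 35.1% of all genes tested). Both collagen IV chains and both nidogens were thus high in ISO 3, while perlecan and Lamb2 were low there. Both alpha chains lay near their means over the 6 libraries in ISO 3, with log2 deviations of -0.054 for Lama2 and -0.038 for Lama4. All 10 genes are long, with 4884 to 14240 bases in the table against a median of 3431 over all genes tested. In saline 3 the median deviation from the mean of each gene over the libraries was -0.50 (log2) for the 10 genes, -0.54 for the 3725 genes of 4884 bases or more and -0.28 for the 8536 shorter genes. The same median lay between 0.022 and 0.28 for the 10 genes in the other 5 libraries.

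**Figure D3:**
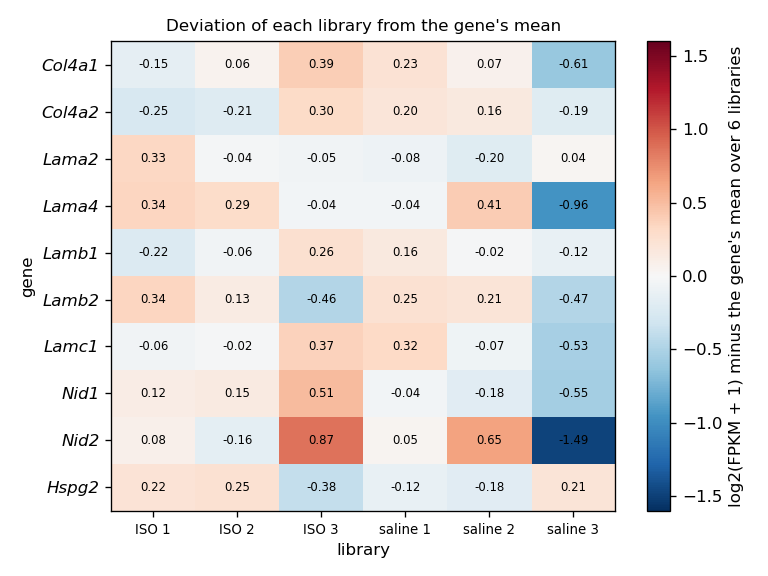
Deviation of each library (columns, ISO left and saline right) from the mean of the gene over the 6 libraries (rows), in log2(FPKM + 1), with red above and blue below the mean. Saline 3 holds the lowest value of the plot, -1.49 for Nid2, and ISO 3 the highest, 0.87 for Nid2, while Hspg2 runs the other way, at -0.38 in ISO 3 and 0.21 in saline 3.

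Markers of other cell types moved between the groups and libraries as well. The summed level of 10 heart muscle markers was 13053 to 22316 in ISO and 30656 to 47413 in saline (FPKM). That of 10 fibroblast markers was 2577 to 3184 in ISO and 1570 to 2267 in saline, and neither sum overlapped. Much of the fibroblast sum was Gsn and Dcn, which each overlapped between the groups. Gsn was at 996 ± 472 FPKM in ISO and 754 ± 203 FPKM in saline. Dcn was at 829 ± 141 FPKM in ISO and 492 ± 163 FPKM in saline (SD, n = 3 each). Taken singly, 4 of the 10 heart muscle markers (Myh6, Tnnt2, Tnni3 and Tnnc1) did not overlap, with ISO lower (3.72% of all genes tested). The list was drawn up as ventricular, but not all of its genes are limited to that chamber. Myl2 did overlap, at 1985, 1962 and 140 FPKM in ISO 1 to 3 and 2566, 526 and 9101 FPKM in saline 1 to 3. So did Myl3, at 612, 540 and 40.5 FPKM in ISO 1 to 3 and 551, 163 and 4326 FPKM in saline 1 to 3. Of the 10 fibroblast markers, 7 did not overlap, with ISO higher (12.8% of all genes tested). The 12 endothelial markers summed to 1964 to 3685 in ISO and 2588 to 4781 in saline. Much of that sum was Fabp4, at 1708 ± 1073 FPKM in ISO and 2816 ± 1383 FPKM in saline, and the fold change was above 0 for 9 of the 11 endothelial markers tested (median log2 fold change 0.39). Cdh5, the cadherin of endothelial junctions, was at 42.3, 44.8 and 46.5 FPKM in ISO 1 to 3 and at 48.1, 37.9 and 22.2 FPKM in saline 1 to 3, and so was lowest in saline 3 as well. Cldn5 was listed at 0 in ISO 1 and in saline 3. The 10 pericyte and smooth muscle markers summed to 323 to 451 in ISO and 292 to 461 in saline, the 10 macrophage markers to 1047 to 1996 in ISO and 491 to 932 in saline, with no overlap, and the 6 atrial markers to 15141 to 18055 in ISO and 10430 to 26381 in saline. The 6 Schwann cell markers summed to 129 FPKM in ISO 3 against 21.3 to 53.9 FPKM elsewhere, and the 6 adipocyte markers to 1549 FPKM in ISO 3 against 161 to 516 FPKM elsewhere. The 5 epicardial markers summed to 220 to 303 in ISO and 108 to 233 in saline. The part of these cells in the values of the basement membrane genes was not tested.

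Collagen IV was set against Col1a1, a chain of the fibril collagen of scar tissue. Col1a1 was at 111, 133 and 189 FPKM in ISO 1 to 3, against 68.2, 82.8 and 65.7 FPKM in saline 1 to 3 (log2 fold change 0.96, SE 0.27, adjusted p = 0.6985 with limma). The ratio of Col4a1 to Col1a1 was 0.402, 0.388 and 0.344 in ISO 1 to 3 and 0.851, 0.628 and 0.488 in saline 1 to 3, so every ISO ratio lay below every saline ratio. The difference of the log2 ratios of FPKM + 1 was -0.75 (ISO -1.39 ± 0.12, saline -0.63 ± 0.39, SD, n = 3 each). The exact permutation test gave p = 0.1, the smallest possible, and 0.3 after adjustment over the 6 ratios. Col1a1 was chosen with its values known, so the difference is given as a description and this p is no support for it. The difference stayed between -0.94 and -0.55 over the alternative settings.

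**Figure D4:**
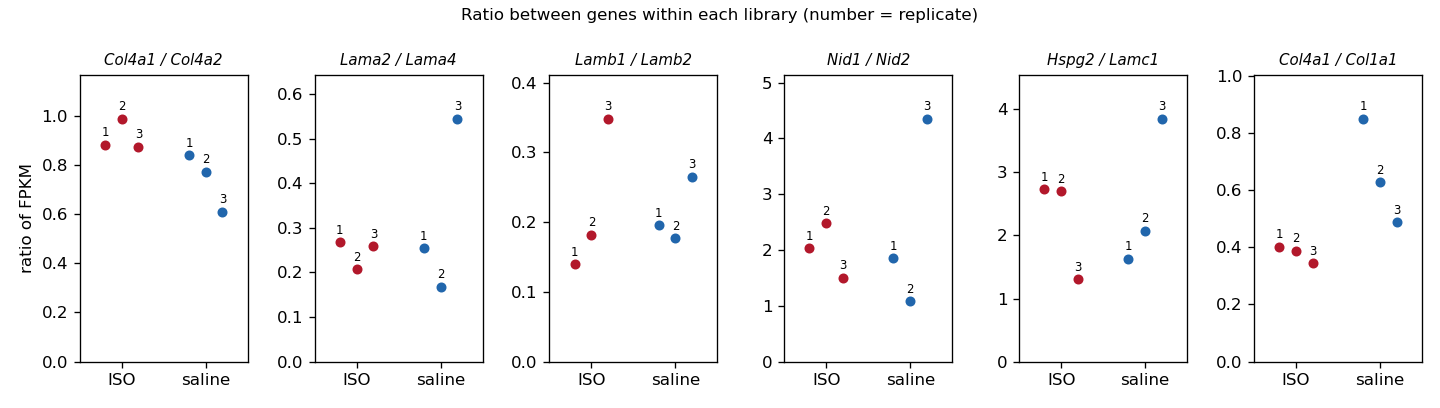
Ratio of FPKM between the genes of each pair within each library (axis from 0), for ISO (red, left) and saline (blue, right), numbered by replicate. The groups do not overlap for Col4a1 to Col4a2 (0.876 to 0.991 in ISO, 0.611 to 0.841 in saline) and Col4a1 to Col1a1 (0.344 to 0.402 in ISO, 0.488 to 0.851 in saline), and they overlap for the other 4 ratios.

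Of 10 other collagen IV and laminin chain genes, 7 were tested and 0 were called in either direction (5 above 0 and 2 below, median log2 fold change 0.50). Col4a5, an X-linked collagen IV chain, was at 16.3, 13.9 and 18.4 FPKM in ISO 1 to 3, against 14.9, 12.7 and 1.37 FPKM in saline 1 to 3, where saline 3 alone stood apart (log2 fold change 1.09, and 0.21 without saline 3). Lama5, the other main alpha chain of mature vessels, was at 48.0, 40.4 and 16.6 FPKM in ISO 1 to 3, against 37.4, 24.4 and 12.03 FPKM in saline 1 to 3, and ISO 3 was its lowest ISO library, as for Lama2 and Lama4. Lama1, the alpha chain of the early embryo, was under the level tested, at 0.0281, 0.0402 and 0.0553 FPKM in ISO 1 to 3 and at 0.0525, 0 and 1.19 FPKM in saline 1 to 3. The groups did not overlap for Col4a4 and Col4a6, with ISO higher, and for Lamb3, with ISO lower. In this and the following lists, genes named for not overlapping were picked after their values were seen. Over all genes tested, 12.8% did not overlap with ISO higher and 3.72% with ISO lower, and 68.1% had a fold change above 0.

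Of 16 other basement membrane components, 14 were tested, 0 were called and 13 had a fold change above 0 (median log2 fold change 0.52). For Col18a1, Sparc, Smoc1, Smoc2 and Fbln2 (5 of the 14, against 12.8% of all genes tested) every ISO library was above every saline library. Sparc, a collagen-binding glycoprotein, was at 490, 515 and 716 FPKM in ISO 1 to 3, against 294, 311 and 240.2 FPKM in saline 1 to 3 (log2 fold change 1.01, SE 0.25, adjusted p = 0.6985 with limma). Col18a1, the collagen from which endostatin is cut, was at 9.84, 9.25 and 8.01 FPKM in ISO 1 to 3, against 5.75, 5.30 and 3.36 FPKM in saline 1 to 3 (log2 fold change 0.81, SE 0.27, adjusted p = 0.6985 with limma). Agrn, the heparan sulfate proteoglycan agrin, was at 62.0, 54.9 and 31.6 FPKM in ISO 1 to 3 and at 44.8, 40.98 and 22.6 FPKM in saline 1 to 3, with the third library lowest in each group, as for Lamb2. Col15a1, a collagen beside muscle and vessel basement membranes, was at 17.9 ± 3.75 FPKM in ISO and 12.8 ± 6.72 FPKM in saline. Pxdn, the peroxidase that crosslinks collagen IV, was at 29.9 ± 5.55 FPKM in ISO and 20.5 ± 13.0 FPKM in saline (SD, n = 3 each), and both overlapped between the groups, with log2 fold changes of 0.074 for Col15a1 and 0.077 for Pxdn without saline 3.

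Of 13 basement membrane receptors, 12 were tested and 0 were called (10 above 0 and 2 below, median log2 fold change 0.33). Itgb1, the beta subunit that the laminin and collagen integrins share, was at 67.3 ± 17.3 FPKM in ISO and 53.1 ± 16.5 FPKM in saline. Itga7, the laminin integrin of muscle, was at 19.7 ± 4.90 FPKM in ISO and 22.6 ± 3.12 FPKM in saline. Itga1, a collagen IV integrin, was at 3.39 ± 0.798 FPKM in ISO and 2.22 ± 1.56 FPKM in saline, and Itga6, a laminin integrin, at 15.4 ± 4.62 FPKM in ISO and 11.3 ± 6.25 FPKM in saline. Bcam, a receptor for the Lama5 chain, was at 160.0, 136 and 96.7 FPKM in ISO 1 to 3 and at 151, 140.1 and 93.5 FPKM in saline 1 to 3. Dag1, which encodes dystroglycan, was at 31.7, 30.9 and 17.7 FPKM in ISO 1 to 3 and at 26.4, 25.3 and 27.3 FPKM in saline 1 to 3. The groups overlapped for these 6 genes and did not for Itgb4 and Ddr2, with ISO higher.

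The dystrophin complex, which joins dystroglycan to the cytoskeleton, had 9 of 9 genes tested and 0 called (4 above 0 and 5 below, median log2 fold change -0.12). Dmd, dystrophin, was at 3.08 ± 0.578 FPKM in ISO and 3.45 ± 0.755 FPKM in saline, and Sgcd, a sarcoglycan, at 2.59 ± 0.326 FPKM in ISO and 2.36 ± 0.313 FPKM in saline (SD, n = 3 each). The groups did not overlap for Utrn, with ISO higher, and for Dtna, with ISO lower. Of 12 enzymes that build the laminin-binding sugar of dystroglycan, 11 were tested and 0 were called (6 above 0 and 5 below, median log2 fold change 0.014).

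The genes that fold and secrete collagen had 13 of 13 tested and 0 called (10 above 0 and 3 below, median log2 fold change 0.18). Serpinh1, a collagen chaperone, was at 136 ± 19.2 FPKM in ISO and 149.7 ± 34.1 FPKM in saline. P4ha1, a prolyl hydroxylase subunit, was at 20.1 ± 2.44 FPKM in ISO and 18.3 ± 4.24 FPKM in saline, and Plod3, a lysyl hydroxylase that acts on collagen IV, at 26.5 ± 2.61 FPKM in ISO and 22.0 ± 5.41 FPKM in saline (SD, n = 3 each). The groups overlapped for these 3 genes and did not for P3h2 and Colgalt1, with ISO higher.

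Of 13 proteases and inhibitors that act on basement membranes, 13 were tested and 0 were called (10 above 0 and 3 below, median log2 fold change 0.80). Mmp2, a gelatinase that cuts collagen IV, was at 53.9, 57.6 and 75.1 FPKM in ISO 1 to 3, against 25.7, 37.0 and 23.9 FPKM in saline 1 to 3, with no overlap (log2 fold change 1.09, SE 0.26, adjusted p = 0.6985 with limma). Mmp14, the membrane protease that activates Mmp2, was at 26.9 ± 3.76 FPKM in ISO and 21.6 ± 5.58 FPKM in saline. Timp1, a metalloproteinase inhibitor, was at 31.1, 40.5 and 54.6 FPKM in ISO 1 to 3 and at 43.7, 38.8 and 0 FPKM in saline 1 to 3, so its log2 fold change of 1.79 rested on saline 3, without which it was -0.0074. Timp3, an inhibitor bound to the matrix, was at 184 ± 35.9 FPKM in ISO and 116 ± 68.8 FPKM in saline (SD, n = 3 each), with a log2 fold change of 0.82, and 0.38 without saline 3. The groups also did not overlap for Ctsb, Timp2 and Hpse, with ISO higher, and for Timp4, with ISO lower. With Mmp2 this made 4 of the 13 with ISO higher and 1 with ISO lower, against 12.8% and 3.72% of all genes tested.

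The mean of the 10 genes, each standardised over the 6 libraries, was 0.19, 0.085 and 0.44 SD in ISO 1 to 3 and 0.29, 0.038 and -1.04 SD in saline 1 to 3. The 5 other genes whose log2(FPKM + 1) was most like this mean over the 6 libraries were Bmp6, Pigk, Sox7, Cacybp and Ermp1, with Pearson r of 0.997 to 0.999. Bmp6, a bone morphogenetic protein made by endothelial cells, was at 21.2, 17.2 and 31.6 FPKM in ISO 1 to 3 and at 24.5, 15.5 and 2.52 FPKM in saline 1 to 3. All 5 were lowest in saline 3. Of 12259 genes, 2480 had r above 0.9, and the mean itself was lowest in saline 3. The 10 genes themselves had r of -0.52 (Hspg2) to 0.92 (Col4a1) with it. All 6 points share their library and its depth, and r is given as a description only.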

How the data were processed

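The authors deposited 1 table of FPKM values, 1 column per library, from polyadenylated RNA of 3 ISO and 3 saline left ventricles. The submitters' processing notes name the tools Cufflinks 2.2.1, HISAT2 2.1.0, fastp 0.20.0, DESeq, HTSeq 0.7.2 and CASAVA 1.8 and the build GRCm38, with no role or order; the annotation release and strand setting are not given in the sources used here. FPKM is relative to the library total, so a few abundant genes lower all others. Whole reads and totals were recovered from the steps of the values (all 16816 genes that 2 or more libraries list above 0, tolerance 0.0001 read, 100.0%), and intervals on reads hold only the error of counting.

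The test was limma 3.58.1 in R 4.3.3 on log2(FPKM + 1) (trended variance, no term but group, Benjamini-Hochberg over 12269 genes with a mean of at least 1 FPKM). Ratios were tested by exact permutation (Python 3.11.15, scipy 1.17.1). Both the fit and the read recovery were tested on simulated data. The members and lists were chosen with earlier results of these data known. All members were named with each library's value, and the related genes were named from fixed lists whatever their values; list genes named for not overlapping were chosen after their values were seen, and some list genes are not reported here by name. Positions, synonyms (4 older symbols matched) and sequences are RefSeq's (GRCm38.p6), exon overlaps GENCODE M21's. No pair of libraries agreed within sampling noise (the closest, ISO 1 and ISO 2, differed by 4.45 times what sampling gives), so all 6 were counted. Alternatives were another pseudocount (0.1), no filter, median-of-ratios and quantile scaling, removal of a trend on gene length, sample quality weights, a replicate block, limma-voom and each library left out; leaving out ISO 3 and saline 3 together was chosen after seeing the data.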

Additional observations from a re-analysis of the deposited data

How the results depend on the processing

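None of the 10 members was called under any alternative. Over all genes the count stayed at 0 except with sample quality weights (768 genes, saline 3 weighted 0.0772) and without ISO 1 (0 to 16 with 1 library left out). Mmp2, Sparc and Col18a1 passed with quality weights only (adjusted p of 0.0175, 0.0202 and 0.0333). The median log2 fold change of the members, 0.18, was -0.083 with the trend on gene length removed, -0.11 with quality weights and -0.076 without ISO 3 and saline 3, and over all genes the median was -0.0055, 0.050 and 0.045 there, and 0.0055 with median-of-ratios scaling. Members without overlap numbered 0 with the length trend removed, 1 to 3 with 1 library left out (2 each without saline 1, saline 2 or saline 3, where 27.0%, 30.0% and 28.1% of all genes did not overlap, and 3 without ISO 3, with 28.2%) and 6 without ISO 3 and saline 3, with 49.6%. The replicate numbers did not pair the libraries (correlation of same-numbered deviations 0.013, -0.15 and -0.026), and with the replicate block 0 genes and 0 members were called and the members' median was 0.18.

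Log2 fold changes changed sign as follows, and the cause was not tested. With quality weights they were -0.14 for Col4a1, -0.083 for Lamb2, -0.21 for Lamc1, -0.22 for Nid2, -0.066 for Itga6, 0.19 for Dag1, -0.084 for Bcam, -0.090 for P4ha1 and -0.020 for Timp1. With the length trend removed they were -0.076 for Col4a1, -0.081 for Lama2, -0.27 for Lamb2, -0.086 for Lamc1, -0.14 for Hspg2, -0.17 for Bcam, -0.12 for Sgcd and -0.11 for P4ha1. With median-of-ratios scaling they were -0.024 for Col4a1, -0.047 for Lama2, -0.22 for Lamb2, -0.026 for Lamc1, -0.17 for Hspg2, -0.20 for Bcam, -0.073 for Sgcd and -0.066 for P4ha1. With quantile normalization they were -0.076 for Lama2, -0.016 for Lamb2, -0.0089 for Hspg2, -0.18 for Sgcd and -0.029 for P4ha1. Without ISO 3 and saline 3 they were -0.20 for Col4a1, -0.16 for Lamc1, -0.39 for Nid2, -0.20 for Itga6, -0.068 for Itgb1, 0.27 for Dag1, -0.14 for P4ha1, -0.0057 for Plod3 and -0.21 for Timp1, and the differences of log2 ratios were 0.15 for Lama2 to Lama4, 0.63 for Nid1 to Nid2 and 0.55 for Hspg2 to Lamc1.

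With 1 library left out, the range was -0.049 to 0.37 for Col4a1, -0.14 to 0.097 for Lamb1, -0.23 to 0.24 for Lamb2, -0.026 to 0.40 for Lamc1, -0.083 to 0.98 for Nid2, -0.048 to 0.27 for Hspg2, -0.16 to 0.24 for Dag1, -0.18 to 0.23 for Bcam, -0.22 to 0.016 for Dmd, -0.044 to 0.27 for P4ha1, -0.25 to 0.052 for Serpinh1 and -0.0074 to 2.73 for Timp1. For the log2 ratios it was -0.60 to 0.20 for Lama2 to Lama4, -0.39 to 0.26 for Lamb1 to Lamb2, -0.43 to 0.45 for Nid1 to Nid2 and -0.38 to 0.21 for Hspg2 to Lamc1. Depth limited Nid2 in saline 3 most, at 51 reads.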
